A study of Mus musculus with 96 samples.

Results

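Major histocompatibility complex (MHC) class II molecules carry peptides taken from endocytosed proteins to the surface of antigen-presenting cells, where CD4+ T cells read them. An alpha and a beta chain form the surface molecule. In the endoplasmic reticulum the invariant chain, CD74, fills its groove, and after cleavage of CD74 by lysosomal proteases the H2-DM dimer exchanges the remaining fragment for peptide. In mouse liver, class II is known from Kupffer cells, dendritic cells and B cells far more than from resting hepatocytes. Transcription of these genes depends on the coactivator CIITA, which binds no DNA itself and is held at their promoters by the RFX complex on the X box and by NF-Y on the Y box.

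Of the 13094 entries in the deposited table of liver RNA, 7 were examined here, chosen by symbol: H2-Aa, H2-Ab1, H2-Eb1, Cd74, H2-DMa, H2-DMb1 and Ciita. All 7 were found. The mice were male C57BL/6J littermates of 3 to 4 months, all homozygous for a floxed Rbbp5 allele. RBBP5 is a core component of the histone H3 lysine 4 methyltransferases of the COMPASS family. In 48 mice without Cre (Flox, genotype alb-cre(-/-)) the gene was left intact, and 48 mice (LKO, alb-cre(+/-)) carried Cre under the albumin promoter, which is active in hepatocytes and not in the blood-derived cells of the liver. After 2 weeks of cycles with equal light and dark phases of 12 h, followed by 24 h of constant darkness, 2 livers per genotype were collected at intervals of 2 h, the first at circadian time (CT) 0 and the last at CT46, with food freely available. The genotype difference at CT0 to CT40 was kept apart from that at CT42 to CT46.

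The values are fragments scaled by the length of the gene and the depth of the library (FPKM), so that levels of different genes can be compared. No counts were used here, so no counting intervals are given, and total FPKM ran from 313376 to 498760 per library. Steps among the lowest values gave a median relative depth of 0.957 in Flox and 1.08 in LKO before CT42, and of 0.925 and 0.904 from CT42 on. In these medians Flox CT42B and LKO CT26A stand at exactly 1, the value the fit gives a library without usable steps. The targeted gene, Rbbp5, measured 3.35 ± 0.527 FPKM in Flox and 2.27 ± 0.611 in LKO (SD, n = 42 each) before CT42, a log2 difference of -0.42 (SE 0.04, limma adjusted p = 1.81e-12). From CT42 to CT46 it went against the label, with 2.71 ± 0.718 FPKM in Flox and 3.79 ± 0.399 in LKO (n = 6 each, log2 difference 0.39, limma adjusted p = 0.00203). The late libraries are therefore called those labelled LKO, and every late direction below rests on that label. They also stood apart in macrophage transcripts. Ear2, a ribonuclease of alveolar macrophages, ran from 672.6 to 1387 FPKM in these 6 libraries and from 1.09 to 6.36 FPKM in the 42 earlier LKO libraries. At CT42 the 2 libraries labelled LKO lay close together, with an SD of 0.20 between their log2 values, while the other 14 pairs of late libraries labelled LKO had SDs from 0.44 to 1.07. Without counts this could not be set against sampling noise, and both were kept.

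The class II promoters for which sequence was at hand are shown first. X and Y boxes are the elements through which class II genes are known to be controlled. In 3 of the 4 genes read, core letters of both stood at the spacing given below, and other spacings were not searched. On mm10, H2-DMa (plus strand, 34119541 to 34139101), H2-DMb1 (plus, 34153072 to 34160230), H2-Ab1 (plus, 34257689 to 34269419), H2-Aa (minus, 34282744 to 34287823) and H2-Eb1 (plus, 34305867 to 34316674) lie in a row on chromosome 17. Ciita lies on chromosome 16 (plus, 10480059 to 10528418), per GENCODE M21. RefSeq promoters (GRCm38.p6) of 300 bases, from 250 before to 50 after an annotated start, were read for H2-Aa, H2-Eb1, H2-DMb1 and H2-DMa. The stretches below run 5′ to 3′ on the strand of the gene from base -110 to base -31. Capitals mark the core GNAAC of the X box and, downstream of it, the Y box ATTGG, which is CCAAT on the other strand.
H2-Aa, chr17:34287854-34287933, minus strand: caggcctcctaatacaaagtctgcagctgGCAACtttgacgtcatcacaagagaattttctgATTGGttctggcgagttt
H2-Eb1, chr17:34305757-34305836, plus strand: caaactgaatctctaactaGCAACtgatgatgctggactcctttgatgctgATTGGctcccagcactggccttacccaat
H2-DMb1, chr17:34153081-34153160, plus strand: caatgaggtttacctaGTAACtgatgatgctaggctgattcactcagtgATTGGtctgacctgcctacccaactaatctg

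The GNAAC core began at -81 in H2-Aa, -91 in H2-Eb1 and -94 in H2-DMb1, and ATTGG began at -48, -59 and -61, so that the starts were 33, 32 and 33 bases apart. The spacing window was chosen after these sequences had been read. On either strand, GNAAC followed after 30 to 34 bases by ATTGG on the same strand occurred in 281 of 32851 promoters of this length, or 0.855%. ATTGG alone occurred in 37.4% and GNAAC alone in 84.8%. Among related genes outside the 7, the arrangement was also present in H2-Oa and H2-Ob, the chains of the H2-O dimer that restrains H2-DM. Read on the strand of the gene only, neither of the 2 annotated starts of H2-DMa had this arrangement in its window, nor did H2-DMb2. Matches of this kind describe letters and not occupied sites.

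**Figure D1:**
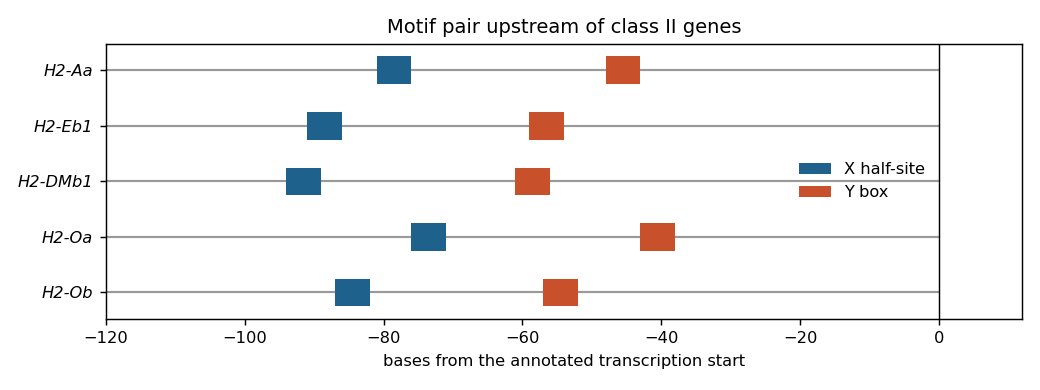
Position of the X-box core and the Y box upstream of the annotated transcription start (0 on the x axis, in bases) in H2-Aa, H2-Eb1, H2-DMb1, H2-Oa and H2-Ob. The start of the X-box core lies between -94 and -76 and that of the Y box between -61 and -43.

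Before CT42 all 6 genes that could be tested across the whole table were higher in LKO than in Flox. H2-Aa, the alpha chain of the I-A molecule, ran from 8.79 to 49.9 FPKM with a median of 16.1 in the 42 Flox livers, and from 14.1 to 129.5 with a median of 27.9 in the 42 LKO livers. Means were 17.97 ± 7.86 and 32.7 ± 19.0 FPKM (SD), and LKO was higher at 19 of 21 time points. The groups overlapped, since 3 LKO libraries lay above the highest Flox library and 12 Flox libraries below the lowest LKO library. Its log2 difference, on the scale of log2(FPKM + 1), was 0.78 (SE 0.12, limma adjusted p = 6.0e-08).

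H2-Ab1, the beta chain that pairs with H2-Aa, measured 7.90, 14.1 and 45.4 FPKM (lowest, median and highest) in Flox and 10.8, 21.1 and 96.1 in LKO. It was higher in LKO by 0.59 on the log2 scale (SE 0.11, limma adjusted p = 1.42e-05), with 1 LKO library above all Flox libraries. H2-Eb1, the beta chain of I-E, measured 4.49, 7.80 and 24.0 FPKM in Flox and 6.34, 14.2 and 64.9 in LKO. The log2 difference was 0.72 (SE 0.11, limma adjusted p = 1.28e-07). As background, C57BL/6 mice have a defective Ea gene and display no I-E, so H2-Eb1 RNA is read here as transcription from the locus and not as surface molecule. H2-Ea had no value in the analysis.

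Cd74, the invariant chain (mm10 chromosome 18, plus strand, 60803848 to 60812652), was the most abundant of the 7. It measured 19.6, 35.3 and 97.4 FPKM (lowest, median and highest) in Flox and 27.4, 56.9 and 241.0 in LKO, a log2 difference of 0.69 (SE 0.11, limma adjusted p = 5.68e-07). LKO was higher at 19 of 21 time points for each of Cd74, H2-Ab1 and H2-Eb1, and both exceptions were CT0 and CT24. At CT0 the mean of the 2 Flox livers was 69.9 FPKM of Cd74 against 49.2 in LKO, and at CT24 it was 61.4 against 51.4. H2-Aa had the same exceptions.

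The genes of the peptide exchange factor were far lower. H2-DMa measured 0.648, 1.22 and 2.71 FPKM in Flox and 0.932, 2.15 and 6.09 in LKO, a log2 difference of 0.44 (SE 0.07, limma adjusted p = 3.72e-07). H2-DMb1 measured 0.510, 1.51 and 3.53 FPKM in Flox and 0.884, 2.16 and 8.55 in LKO, with a log2 difference of 0.32 (SE 0.08, limma adjusted p = 0.000234). On the linear scale the ratio of LKO to Flox means was 1.66 for H2-DMa and 1.45 for H2-DMb1, against 1.82 for H2-Aa, 1.58 for H2-Ab1, 1.79 for H2-Eb1 and 1.69 for Cd74. The pseudocount of 1 lowers the log2 differences of the DM genes more than those of the abundant chains. H2-DMb1 and its neighbour H2-DMb2 are close paralogs, and the sources used here do not give how reads shared between them were assigned. H2-DMa overlaps Brd2 on the opposite strand in the annotation, and nor do they give whether fragments were counted by strand.

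The 6 of 6 tested genes stood against 31.6% of all 9901 tested entries called higher in LKO before CT42 and 30.3% called lower. The median log2 difference was 0.64 over the 6 genes and 0.00 over all entries. In bulk liver, more cells that carry class II and more class II RNA per cell cannot be told apart. LKO livers also held more RNA of leukocyte genes in the same window. Of the markers shared by leukocytes, 6 of 6 whose mean reached 1 FPKM also without the late libraries labelled LKO were higher, among them Fcer1g (0.83), Cd52 (0.80), Coro1a (0.66) and Cd53 (0.39, all log2). Their summed level ran from 19.3 to 59.9 FPKM in Flox and from 24.7 to 156.7 in LKO over all 7 present genes, and none of the 7 was at 0 throughout. H2-Aa per Ptprc, the pan-leukocyte phosphatase CD45, had a median of 27.1 in Flox and 30.6 in LKO. The log2 ratio differed by 0.12 between genotypes (two-sided permutation within time points, p = 0.363, adjusted p = 0.396 over 12 such ratio tests). Ptprc was low before CT42, with medians of 0.568 FPKM in Flox and 0.915 in LKO, and the ratio ran from 12.8 to 77.7 in Flox. With such a spread the ratio cannot decide the part of leukocyte content in the difference, which was not tested.

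Ciita, the coactivator gene, averaged 0.227 FPKM over all 96 libraries and lay below the minimum mean of 1 FPKM for the test across entries. Before CT42 it measured 0.0268, 0.116 and 0.476 FPKM (lowest, median and highest) in Flox and 0.0740, 0.154 and 0.311 in LKO. No LKO library exceeded the highest Flox library, while 12 Flox libraries lay below the lowest LKO library. The mean log2(FPKM + 0.1) was higher in LKO by 0.23 (two-sided permutation within time points, p = 0.00514, adjusted p = 0.0103 over 4 windows), and LKO was higher at 15 of 21 time points. At CT0 to CT22 the difference was 0.12 (permutation p = 0.299) and at CT24 to CT40 0.39 (permutation p = 0.00204). Without the libraries lettered B the difference before CT42 was 0.21 and no longer passed (permutation p = 0.0974). Without the libraries lettered A that at CT24 to CT40 was 0.28 (permutation p = 0.126). Tested with all other entries and no minimum mean, it was 0.04 on the log2(FPKM + 1) scale (limma adjusted p = 0.0567).

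**Figure D2:**
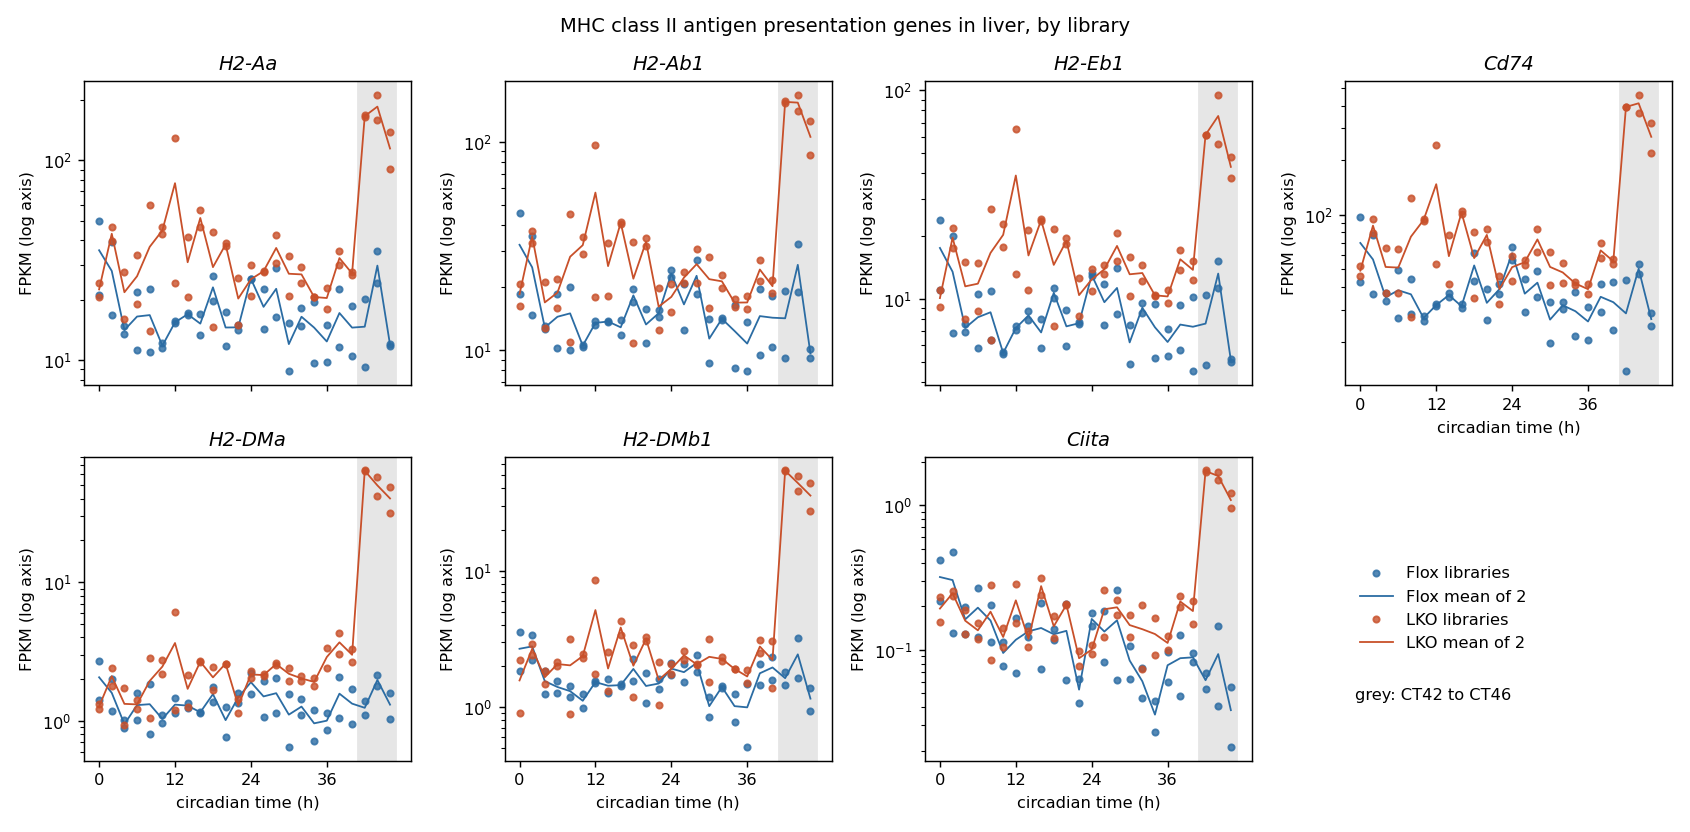
FPKM on a log axis against circadian time in h for each of the 7 genes, with 1 point per library and a line through the mean of the 2 libraries per genotype and time. Grey marks CT42 to CT46, where the 6 libraries labelled LKO lie above the 6 Flox libraries for every gene, and the highest LKO point before it is the library CT12A for all genes but Ciita.

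Both days before CT42 gave the same direction. At CT0 to CT22 all 6 tested genes were higher in LKO (25.1% of entries were), with log2 differences from 0.32 for H2-DMb1 to 0.85 for H2-Aa. At CT24 to CT40 all 6 were higher again (29.9% of entries), from 0.33 for H2-DMb1 to 0.68 for H2-Aa. Of the called entries 36.4% were higher on the first day and 85.2% on the second, and after median-ratio scaling 49.0% and 47.1%. The count on the second day depended on the libraries used, with 3 of 6 called without letter A and 1 of 6, H2-DMa, without letter B. None of the 6 changed its genotype difference between the days by limma (0 with an unadjusted p under 0.05), while 55.9% of entries did in either direction. The nearest was H2-DMa, at 0.33 on the first day and 0.58 on the second (adjusted p of the change = 0.118).

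A single liver, LKO CT12A, held the highest value before CT42 of all genes but Ciita. H2-Aa was 129.5 FPKM in it and 24.4 FPKM in CT12B, and Cd74 was 241.0 and 53.9 FPKM. Among Flox livers CT0A was highest for the same 6 genes, with 49.9 FPKM of H2-Aa. Without LKO CT12A the log2 differences before CT42 were 0.73 for H2-Aa, 0.53 for H2-Ab1, 0.67 for H2-Eb1, 0.64 for Cd74, 0.40 for H2-DMa and 0.28 for H2-DMb1, and each still passed (limma).

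**Figure D3:**
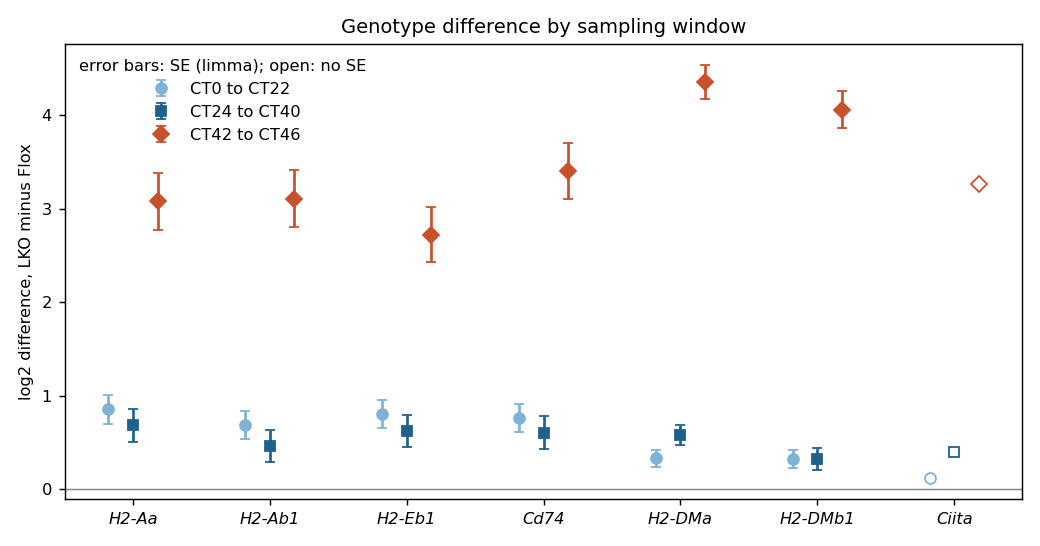
Log2 difference between LKO and Flox by sampling window for the 7 genes, with SE bars from limma on log2(FPKM + 1). Open symbols for Ciita are on log2(FPKM + 0.1) and have no SE. Differences of the 6 tested genes lie between 0.32 and 0.85 on the first 2 windows and between 2.72 and 4.36 at CT42 to CT46.

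From CT42 to CT46 every one of the 7 genes was higher in all 6 libraries labelled LKO than in any of the 6 Flox libraries, as were 39.8% of all tested entries. H2-Aa ran from 91.03 to 212.9 FPKM with a median of 162.0 in the former and from 9.25 to 35.3 with a median of 16.1 in Flox. The ratio of means was 8.28, and the log2 difference was 3.08 (SE 0.31, limma adjusted p = 1.31e-14). H2-Ab1 measured 86.0, 147.0 and 168.1 FPKM (lowest, median and highest) in those labelled LKO and 9.13, 14.6 and 32.3 in Flox, a log2 difference of 3.11 (SE 0.30, limma adjusted p = 5.6e-15). H2-Eb1 measured 37.9, 58.3 and 95.0 FPKM against 4.82, 7.78 and 15.2, with the smallest log2 difference of the 6, 2.72 (SE 0.29, limma adjusted p = 3.84e-13). Cd74 measured 218.7, 378.3 and 458.1 FPKM against 13.7, 36.1 and 53.5, with a log2 difference of 3.40 (SE 0.30, limma adjusted p = 6.88e-17).

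The H2-DM genes moved furthest. H2-DMa ran from 31.5 to 64.1 FPKM with a median of 53.3 in the libraries labelled LKO and from 1.03 to 2.15 with a median of 1.48 in Flox. This made a ratio of means of 34.01 and a log2 difference of 4.36 (SE 0.19, limma adjusted p = 1.23e-34). H2-DMb1 ran from 27.4 to 54.3 FPKM against 0.934 to 3.23, a ratio of means of 25.6 and a log2 difference of 4.06 (SE 0.20, limma adjusted p = 1.89e-30). Ciita ran from 0.957 to 1.74 FPKM against 0.0212 to 0.146, a ratio of means of 22.8. Its log2(FPKM + 0.1) difference was 3.26, with an exact two-sided permutation p of 0.00926, the smallest that the 216 arrangements within time points can give. Within those labelled LKO, CT46A was lowest for all 7 genes, and CT44B was highest for H2-Aa, H2-Ab1, H2-Eb1 and Cd74 but not for H2-DMa, H2-DMb1 or Ciita.

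The scale of the whole table moved in this window. Of all entries 57.3% were called higher and 10.1% lower in the libraries labelled LKO, and the median log2 difference was 0.49, against 3.26 over the 6 genes. After median-ratio scaling the median of all entries was -0.05, and 47.8% of called entries were higher in place of 85.0%. After quantile normalization these were -0.19 and 36.5%. All 6 genes stayed called higher under both.

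The genotype difference itself changed between the windows for all 6 tested genes, where 54.7% of entries rose in the same sense. The change was 3.92 for H2-DMa, 3.74 for H2-DMb1, 2.71 for Cd74, 2.52 for H2-Ab1, 2.30 for H2-Aa and 2.00 for H2-Eb1 (log2, limma adjusted p from 7.67e-30 to 6.46e-08). Mean H2-Aa was 17.97 ± 7.86 FPKM before CT42 (n = 42) and 18.8 ± 9.88 from CT42 on (n = 6) in Flox, and 32.7 ± 19.0 and 155.7 ± 40.005 in LKO. Ordered by level, those labelled LKO from CT42 on came first, earlier LKO second, and the Flox groups of both windows last and within each other's spread.

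The mix of class II transcripts differed as well. Before CT42 the order of levels was Cd74, H2-Aa, H2-Ab1, H2-Eb1, H2-DMb1, H2-DMa and Ciita in each genotype. Neighbours kept this order in at least 40 of 42 libraries, except that H2-DMb1 lay above H2-DMa in 34 of 42 Flox and 26 of 42 LKO libraries. From CT42 on, in the libraries labelled LKO, H2-Eb1 lay above H2-DMa in 2 of 6 libraries, and H2-DMa lay above H2-DMb1 in 6 of 6, against 3 of 6 in late Flox. H2-DMa and H2-DMb1 together made 29.9 FPKM (median, from 16.9 to 30.7) per 100 FPKM of the 3 chain genes there, against 7.04 (from 6.28 to 10.9) in Flox of the same times. The log2 ratio differed by 1.78 (exact two-sided permutation p = 0.00926, adjusted p = 0.0199). The value of 16.9 came from CT44B. Before CT42 the medians were 7.10 in Flox and 6.42 in LKO, a log2 difference of -0.14 in the opposite direction (permutation p = 0.0178, adjusted p = 0.0306). This was 7.27 and 5.32 at CT0 to CT22 and 6.85 and 7.32 at CT24 to CT40. The ratios were chosen after levels had been seen, and adjustment is over the 12 ratio tests.

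**Figure D4:**
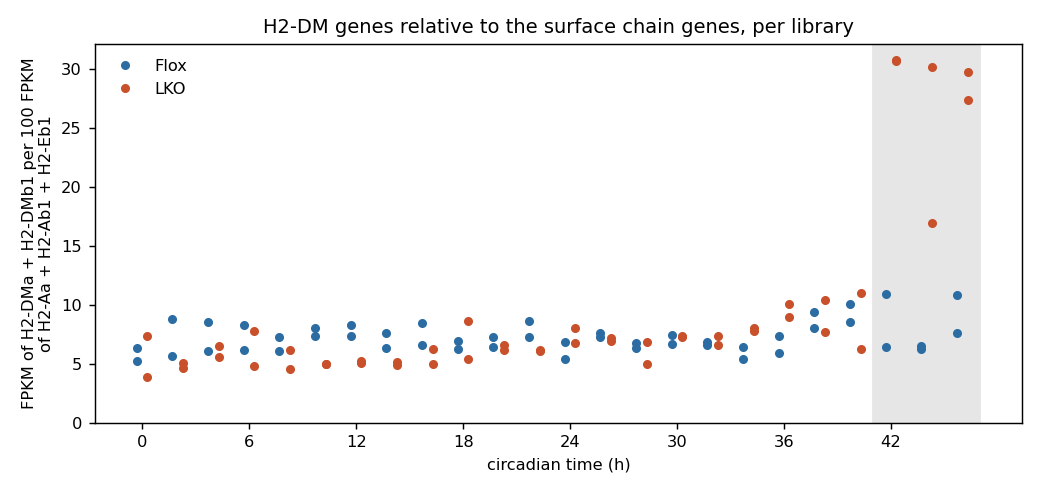
FPKM of H2-DMa and H2-DMb1 per 100 FPKM of H2-Aa, H2-Ab1 and H2-Eb1 in each library against circadian time in h. All libraries before CT42 lie between 3.90 and 10.97, and those labelled LKO from CT42 on between 16.9 and 30.7.

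Smaller shifts separated the chains from each other. H2-Aa per H2-Ab1 averaged 1.12 ± 0.089 in Flox and 1.29 ± 0.098 in LKO before CT42 (SD, n = 42 each). The log2 difference of 0.20 had a permutation p of 1e-05, the smallest that 100000 permutations can give (adjusted p = 6e-05). H2-Eb1 per H2-Ab1 averaged 0.557 ± 0.053 and 0.629 ± 0.057, with a log2 difference of 0.17 and the same p. Cd74 per H2-Aa was lower in LKO, 2.01 ± 0.154 against 2.18 ± 0.239 (log2 difference -0.11, permutation p = 7e-05, adjusted p = 0.00028). From CT42 on H2-Aa per H2-Ab1 averaged 1.12 ± 0.078 in those labelled LKO and 1.15 ± 0.121 in Flox (n = 6 each), and the log2 difference of -0.04 did not pass (exact permutation p = 0.537). H2-Eb1 per H2-Ab1 was then lower, 0.428 ± 0.070 against 0.530 ± 0.041 (exact permutation p = 0.0278, adjusted p = 0.037), and Cd74 per H2-Aa higher, 2.31 ± 0.090 against 1.93 ± 0.369 (the same p and adjusted p). The ratio of H2-DMa to H2-DMb1 was higher in LKO before CT42, with medians of 0.943 against 0.801 (permutation p = 0.00997, adjusted p = 0.0199). From CT42 on its log2 difference of 0.35 did not pass (exact permutation p = 0.0556, adjusted p = 0.0667).

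Marker lists of cell types differed unevenly in the late window. Counts of lists are given here over genes that reached the minimum mean also without the 6 late libraries labelled LKO, and genes that reached it only through them are left out of the counts. Of the alveolar macrophage markers 10 of 10 were higher in those labelled LKO (57.3% of all entries were), with a median log2 difference of 5.41. Their summed level ran from 5374 to 10866 FPKM against 30.7 to 116.9 in Flox. Of the leukocyte markers 6 of 6 were higher, with sums from 733.1 to 1396 FPKM against 35.8 to 58.0. Of 11 Kupffer cell markers 2 were higher, namely Cd68 (5.03) and Csf1r (2.14). Adgre1, outside the count, averaged 23.4 FPKM in those labelled LKO against 0.821 in Flox. Clec4f, Vsig4, Timd4 and Cd5l, which define resident Kupffer cells, did not pass, with log2 differences of -0.51, -0.05, -0.05 and -0.55.

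Of the dendritic cell list 6 genes were present, and none reached the minimum without those libraries. Itgax, the integrin CD11c of dendritic cells and alveolar macrophages, ran from 39.4 to 76.7 FPKM in those labelled LKO against 0.0368 to 0.174 in Flox. Batf3, a factor of cross-presenting dendritic cells, averaged 3.16 FPKM against 0.887. Cd209a averaged 1.91 against 0.170 FPKM, Ccr7 1.09 against 0.266 and Clec9a 1.05 against 0.391. Zbtb46, a factor of conventional dendritic cells, averaged 0.331 ± 0.126 FPKM against 0.304 ± 0.131. Of the B cell list Ly6d alone reached the minimum without them and was higher by 2.59, and sums of the list ran from 14.3 to 539.9 FPKM against 2.22 to 6.31.

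Of the other lists, 2 of 4 monocyte-derived macrophage markers were higher. The 2 others, Apoe (-0.87) and F10 (-0.28), were lower, from Flox means of 18550 and 122.8 FPKM. The present genes of this list outside the count were higher on average, among them Fcgr1 at 9.70 against 0.729 FPKM and Trem2 at 8.58 against 0.545. Higher were also 2 of 2 of neutrophils, 2 of 4 of cholangiocytes, 3 of 11 of stellate cells and 1 of 10 of sinusoidal endothelium. Lower were 7 of 11 of hepatocytes, and the 1 of T and NK cells did not pass. Beside these counts, 57.3% of all entries were higher and 10.1% lower. In the lung epithelium list the 2 tested genes, Cyp2f2 and Hopx, were lower, from Flox means of 482.6 and 46.9 FPKM. The other 3 present genes lay under the minimum and were higher on average, Sftpd at 3.81 against 0.171 FPKM, Sftpa1 at 1.40 against 0.148 and Foxj1 at 0.838 against 0.110. None of the present genes of these lists was at 0 in every library of a group.

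H2-Aa was lower relative to the leukocyte gene Ptprc in the same libraries. H2-Aa per Ptprc had a median of 3.62 (from 3.44 to 7.42) in those labelled LKO and of 25.9 (from 19.0 to 78.0) in Flox at CT42 to CT46. The log2 ratio differed by -2.89 (exact two-sided permutation p = 0.00926, adjusted p = 0.0199). Ptprc reached the minimum mean only through the 6 late libraries labelled LKO, averaging 38.6 FPKM in them against 0.601 in late Flox. That rise is the denominator of the ratio, so its p is no separate support. H2-DMa per Ptprc had medians of 1.31 and 2.54, and H2-DMa per Ctss, a lysosomal protease gene, of 0.0909 and 0.196. The part of these cells in the class II values was not tested.

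Before CT42, of the alveolar macrophage markers 4 of 10 were higher in LKO, against 31.6% of all entries. The smallest p of the list belonged to Lpl (1.21), Atp6v0d2 (0.43), Ctsk (0.24) and Ear2 (0.39), of which Atp6v0d2 and Ctsk reached the minimum mean only through the late libraries. Sums of the list ran from 25.1 to 176.3 FPKM against 33.7 to 99.1 in Flox. Of the Kupffer list 3 of 11 were higher, Cd68 (0.89), C1qa (0.38) and Csf1r (0.19), with sums from 72.6 to 408.1 FPKM against 76.9 to 275.4. Adgre1, outside the count because it reached the minimum mean only through the late libraries, was lower (-0.18, limma adjusted p = 0.0350). Ly6d was higher by 2.27, and the B cell list summed to between 2.55 and 108.1 FPKM against 1.38 and 18.6. Ly6d alone reached 105.2 FPKM in LKO and 15.8 in Flox. The 6 dendritic cell genes summed to between 1.57 and 7.82 FPKM in LKO and between 1.09 and 3.44 in Flox.

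Higher before CT42 were further 2 of 4 monocyte-derived macrophage markers, 8 of 11 of stellate cells, with Col1a1 at 1.07 and Col3a1 at 1.002, and 4 of 4 of cholangiocytes, with Spp1 at 1.58. The same held for 1 of 1 of T and NK cells, 2 of 2 of neutrophils and 4 of 10 of sinusoidal endothelium, where 1 was lower. Hepatocyte markers were lower in 6 of 11 and higher in 1. Beside these counts, 31.6% of all entries were higher and 30.3% lower before CT42. In the lung epithelium list Cyp2f2 and Hopx were lower, while the genes under the minimum averaged 1.18 against 0.199 FPKM (Sftpd), 0.552 against 0.242 (Sftpa1) and 0.431 against 0.152 (Foxj1) in LKO and Flox. The part of these cells in the class II difference was not tested.

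**Figure D5:**
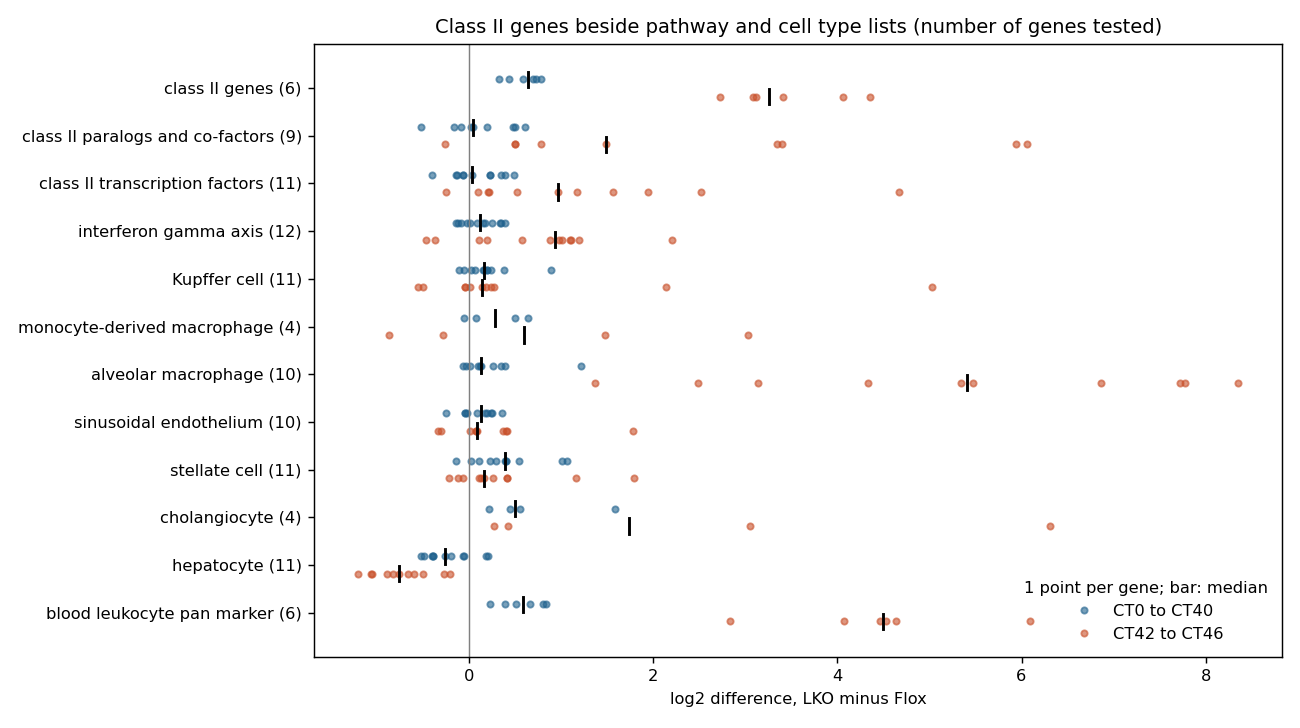
Log2 difference between LKO and Flox for each tested gene of the class II set and of the lists with at least 3 genes, before CT42 and at CT42 to CT46, with a bar at the list median. The class II medians are 0.64 and 3.26, and those of the alveolar macrophage list 0.12 and 5.41. Genes that reached the minimum mean only through the late libraries labelled LKO are left out.

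Upstream of class II, the promoter factors moved unevenly before CT42. Of 11 tested, 5 were higher and 3 lower, against 31.6% and 30.3% of all entries, with a median log2 difference of 0.03. Irf8 (0.38) and Spi1 (0.48), transcription factors of myeloid and B cells, were higher (limma adjusted p = 2.38e-07 and 1.39e-06). Nfyc (0.23) and Nfya (0.22), subunits of NF-Y, were higher while Nfyb was lower (-0.13). Within the RFX complex Rfxank was higher (0.35), Rfxap lower (-0.14), and Rfx5 measured 1.82 ± 0.602 FPKM in Flox and 1.86 ± 0.498 in LKO (SD, n = 42 each, log2 difference 0.03, limma adjusted p = 0.654). From CT42 on 7 of 11 were higher, where 57.3% of all entries were, and none was lower, led by Spi1 at 4.67 and Irf8 at 2.51, while Rfxap (0.22) and Rfxank (0.09) did not pass.

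Interferon gamma is the best known inducer of Ciita. Of 12 genes of its axis that reached the minimum also without the late libraries, 4 were higher in LKO before CT42, close to the 31.6% of all entries, namely the targets Gbp3 (0.33), Gbp6 (0.34) and Cxcl10 (0.39) and the receptor chain Ifngr1 (0.25), and none was lower. The target Iigp1 measured a log2 difference of 0.08 (limma adjusted p = 0.351). From CT42 on 8 of 12 were higher (57.3% of all entries), with Ifngr1 at 2.20, and Iigp1 was lower (-0.47).

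Downstream, among 9 tested paralogs and co-factors, 4 were higher and 1 lower before CT42, against 31.6% and 30.3% of all entries. Their median log2 difference was 0.04. Ifi30, the thiol reductase that unfolds antigen in lysosomes, was higher by 0.60 (limma adjusted p = 2.9e-10). Ctss, the protease that trims CD74 in antigen-presenting cells, was higher by 0.47, Cd9 by 0.50 and Lgmn by 0.19, and Ctsh was lower (-0.52, limma adjusted p = 3.35e-06). From CT42 on 7 of 9 were higher (57.3% of all entries), with Cd9 at 6.06, Ctss at 5.94 and Ifi30 at 3.40, while Ctsl measured -0.26 and did not pass. Of the co-stimulation and adhesion genes Cd48 (0.36 and 4.02) and Icam1 (0.32 and 1.76) were higher in each window. Cd84 and Cd274, which codes for the inhibitory ligand PD-L1, reached the minimum mean only through the late libraries and measured 0.19 and 0.07 before CT42 and 4.48 and 4.41 after.

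The series concerns rhythms of about 12 h, and none of the 6 tested genes had one before CT42. The count was 0 of 6 in Flox (1.19% of entries by the limma F test), 0 in LKO (0.111%) and 0 for the difference between genotypes (0%), and none of the 6 had an unadjusted p under 0.05 in any of these. A period of 24 h passed in Flox for Cd74 (amplitude 0.36, peak CT23.1, adjusted p = 0.0417) and H2-Ab1 (amplitude 0.36, peak CT23.8, adjusted p = 0.0423), against 21.8% of entries. In LKO it passed for H2-DMa (amplitude 0.21, peak CT13.9, adjusted p = 0.0206), against 29.5%. An amplitude is the fitted distance from mean to peak on the log2 scale. Fitted peaks lay between CT22.9 and CT0.01 for the 6 genes in Flox and between CT13.4 and CT14.4 in LKO. These ranges include fits that did not pass, with adjusted p up to 0.303 in Flox and 0.611 in LKO (limma F test). The difference of the 24 h terms had an unadjusted p under 0.05 for all 6 and an adjusted p from 0.141 to 0.307, so 0 of 6 passed, where 0.303% of entries did. The counts depended on single choices: without LKO CT12A 4 of 6 passed in Flox and 0 in LKO, and after median-ratio scaling 0 passed in each.

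Within a genotype the class II genes varied together from liver to liver. After the mean of each time point was removed, Pearson r between H2-Aa, H2-Ab1, H2-Eb1 and Cd74 ran from 0.956 to 0.983 in Flox and from 0.977 to 0.988 in LKO (42 libraries each, before CT42). The DM genes correlated with these 4 at 0.777 to 0.930 and at 0.829 to 0.862, and Ciita with the other 6 at 0.405 to 0.569 and at 0.501 to 0.631. These values describe libraries that share preparation and depth. Outside the 7 genes, those most like the mean of the 6 tested ones in Flox were Cd52 (r = 0.883), a surface peptide of leukocytes, Ltb (0.850), Coro1a (0.831), Evl (0.828) and Cyba (0.820). In LKO they were the actin-binding Tagln2 (0.923), Olfml3 (0.919), the scaffold Iqgap1 (0.916), Anxa2 (0.913) and Ifngr1 (0.910). Ptprc had r of 0.616 and 0.606 and Clec4f of 0.549 and 0.432 in Flox and LKO. Itgax had r of 0.372 and 0.856, at means of 0.112 and 0.310 FPKM, and the B cell gene Cd79a of 0.578 and 0.592. The LKO values include CT12A, and r without it was not computed.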

How the data were processed

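Liver RNA of 96 mice was sequenced from stranded poly(A) libraries, per the labels' protocols, and 1 table of gene-level values was deposited. Per the submitters' processing notes the authors worked with FastQC and Trimmomatic, then HISAT2 and Cufflinks on build mm10, with no versions stated. The header names no unit, and FPKM was read from the values and these tools, so the deposited values are treated as FPKM. Clear steps in low values were found in 3697 of 4560 pairs of libraries, of which 83.6% lay within 0.03 (log2) of the fitted relative depths.

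Values were analysed as log2(FPKM + 1) for those 9901 of 13094 entries whose mean reached 1 FPKM. Linear models in limma 3.58.1 (R 4.3.3), with trend and robust moderation, held a factor of 24 time points and genotype terms per window over 96 libraries. P-values are two-sided, adjusted by Benjamini-Hochberg over all entries with a threshold of 0.05. Rhythms were fitted on 84 libraries with 24 h and 12 h terms per genotype. The 6 tested genes also passed the minimum without the 6 late libraries labelled LKO. Ciita and ratios were tested by permuting genotype within time points 100000 times, or by all 216 arrangements at CT42 to CT46. Scripts were tested on simulated data. Genes, lists and tests were chosen with earlier results of these data known. Named genes are the 7, Rbbp5, those of each list with the 4 smallest p before CT42, and the 5 most alike per genotype. For several cell types, monocyte-derived macrophages among them, fewer are printed than this rule gives. Others, such as Zbtb46, Batf3, Sftpd and Rfx5, were added after values were seen. Some members of the lists are counted and not reported by name here. Replicate letters (A 44, B 48, C 4) did not pair samples. Over 20 time points the correlation of same-lettered deviations ran from -0.40 to 0.34, with 7 over 0.1. Alternatives were other pseudocounts, minimum means, scalings, moderation, a replicate block, a covariate and libraries left out.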

Additional observations from a re-analysis of the deposited data

Results flagged for a closer look

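For 6 genes the genotype difference at CT42 to CT46 departed from that at CT0 to CT40 by a test of the change itself (limma, 6 against 6 libraries set beside 42 against 42). The change on the log2 scale was 2.30 for H2-Aa, 2.52 for H2-Ab1, 2.00 for H2-Eb1, 2.71 for Cd74, 3.92 for H2-DMa and 3.74 for H2-DMb1. Rbbp5 was higher in the libraries labelled LKO than in Flox in the same late window, opposite to the earlier one. No library of the 14 groups of 6 (7 genes, 2 genotypes) at CT42 to CT46 lay far from the others by Dixon's criterion.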

How the results depend on the processing

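All 6 tested genes kept their direction and their call before CT42 and at CT42 to CT46 under every alternative run, with H2-Aa from 0.70 to 0.87 and from 2.40 to 3.33 and H2-DMa from 0.36 to 0.66 and from 3.78 to 4.997. With a replicate block (time and letter) 6 of 6 were higher in each window and 0 changed between days, so it changed no call of the genotype windows. The count at CT24 to CT40 ran from 1 to 6 when a letter was left out. H2-Ab1, Cd74 and H2-DMb1 lost the call without A, all but H2-DMa lost it without B, and H2-DMb1 lost that at CT0 to CT22 without B (0.35). At CT24 to CT40 H2-Ab1 and H2-DMb1 also lost it under median-ratio scaling (0.30 and 0.22) and quantile normalization (0.37 and 0.13). Without LKO CT12A, an alternative added after the data were seen, 1 gene changed between days (H2-DMa, 0.31). The 24 h count in Flox was 0 after median-ratio scaling, 0 with all 96 libraries, 0 with any 1 letter left out and 4 without CT12A. In LKO it was 0, 6, 0 to 1 and 0, and for the difference 2 with all 96 libraries, where 2 also had a 12 h rhythm in LKO. Entries called higher before CT42 numbered 4713 with no minimum mean, against 3126, and 1866 without letter B. At CT42 to CT46 they numbered 3069 and 2359 under median-ratio and quantile scaling, against 5673, and the change from before CT42 gave 3126 and 2431, against 5418. At CT24 to CT40 the 2960 entries became 4443 with no minimum, 1458 and 1315 under these scalings and 1377 and 1082 without A and B. Without B, 1589 were higher at CT0 to CT22 against 2483, and 1749 changed between days against 5531. Leaving out letter A or B at CT42 to CT46 leaves Ciita a smallest possible permutation p of 0.25. Ciita's low level limits its values. The cause of these shifts was not tested.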

Other observations

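The LKO liver CT12A was unlike its partner CT12B in many other cell type lists. Cholangiocyte markers summed to 514.1 FPKM in it and to 101.1 in CT12B, with a median of 82.2 over the 42 LKO livers before CT42. Leukocyte markers summed to 156.7 FPKM against 53.4 and stellate cell markers to 249.3 against 107.6, each the highest of the 42. B cell markers (76.4 against 4.52 FPKM) and Kupffer markers (313.0 against 101.3 FPKM) ranked second. The B cell sum in CT12A is largely Ly6d, since no other gene of that list exceeded 3.27 FPKM (Cd79a) in these 42 livers. Hepatocyte markers summed to 35404 FPKM and ranked 13 of 42.

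The low class II paralogs followed the late difference in part. H2-DMb2 averaged 7.06 ± 1.501 FPKM in the libraries labelled LKO and 0.373 ± 0.179 in Flox at CT42 to CT46 (SD, n = 6 each). H2-Oa averaged 1.10 ± 0.403 against 0.214 ± 0.063, and H2-Ob 0.578 ± 0.283 against 0.264 ± 0.117. H2-DMb2 per H2-DMb1 was 0.160 ± 0.013 in the former and 0.216 ± 0.104 in Flox.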
